A study of Homo sapiens with 6 samples.

Results

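The 10 genes described here, given by name, write, copy, read or remove DNA methylation, and were followed in H1 human embryonic stem cells on a pair of laminin coatings. They are DNMT1, UHRF1, DNMT3A, DNMT3B, DNMT3L, TET1, TET2, TET3, TDG and MBD2. All 10 symbols matched a gene ID among the 60499 of the deposited tables, and all 10 were among the 17608 genes with enough counts to be tested. H1 is an established line, grown here in NutriStem medium for 4 days on laminin-521 alone (LN-521) or on laminin-521 together with laminin-221 (LN-521+LN-221). Each coating had 3 wells, sequenced as 3 libraries, so that p-values measure the spread between wells of a single line. The amount of either laminin is not given in the sources used here.

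DNA methylation in mammals is the addition of a methyl group to cytosine, mostly where a cytosine is followed by a guanine (CpG). DNMT3A and DNMT3B place new marks, helped by the inactive relative DNMT3L, while UHRF1 recognises CpGs methylated on a single strand after replication and brings DNMT1 to copy the mark. TET enzymes oxidise the methyl group, the glycosylase TDG cuts out the most oxidised forms so that repair can restore cytosine, and MBD2 binds methylated CpGs and recruits the NuRD repressor complex. Primed human embryonic stem cells are known for abundant DNMT3B and little DNMT3L.

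The libraries held between 20606450 and 26836686 estimated counts. All 10 pluripotency markers examined, among them POU5F1, SOX2 and LIN28A, were above 10 TPM in every library. TPM is an expression level scaled to library size and corrected for transcript length. SOX17, FOXA2, GATA6 and GATA4 (endoderm) and TBXT, MESP1, MIXL1, HAND1 and EOMES (mesoderm) were below 1 TPM in every library, while CXCR4 of the endoderm list reached 1.23 TPM and TBX6 of the mesoderm list was at 1.64 to 1.93 TPM. Of the 10 pluripotency markers 4 passed an adjusted p of 0.05 in edgeR, where 2.53% of all genes tested did. POU5F1 (log2 fold change -0.36), NANOG (-0.73) and TDGF1 (-0.65) were lower on LN-521+LN-221 and LIN28A (0.23) was higher. The summed TPM of the marker list was 2689 to 3009.8 on LN-521, against 2572 to 2785 on LN-521+LN-221, and its part in the results below was not tested.

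Levels were first compared between the genes. DNMT3B stood far above the others, at 405 ± 30.5 TPM (SD, n = 6 libraries of both coatings). Only 152 of 14570 protein-coding genes tested had a higher mean. It was followed by DNMT1 at 38.0 ± 4.21 TPM (SD, n = 6) and DNMT3A at 31.5 ± 1.57 TPM (SD, n = 6). Within single libraries DNMT3B had up to 13.6 times the TPM of DNMT3A and no less than 8.95 times that of DNMT1. Among the 3 genes that encode active methyltransferases it took 83.7% to 86.2% of the TPM.

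The middle of the order was held by MBD2 at 18.5 ± 1.96 TPM, TET1 at 17.9 ± 2.40 TPM and TDG at 16.1 ± 1.82 TPM (SD, n = 6 each). The ranges of these neighbours overlapped: MBD2 exceeded TET1 in 5 of 6 libraries and TET1 exceeded TDG in 6 of 6. UHRF1 followed at 7.70 ± 1.33 TPM, TET3 at 2.75 ± 0.321 TPM, TET2 at 1.63 ± 0.380 TPM and DNMT3L at 0.757 ± 0.303 TPM (SD, n = 6 each). TET2 exceeded DNMT3L in 6 of 6 libraries, although their ranges overlapped across libraries. The remaining neighbours in the order did not overlap.

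**Figure D1:**
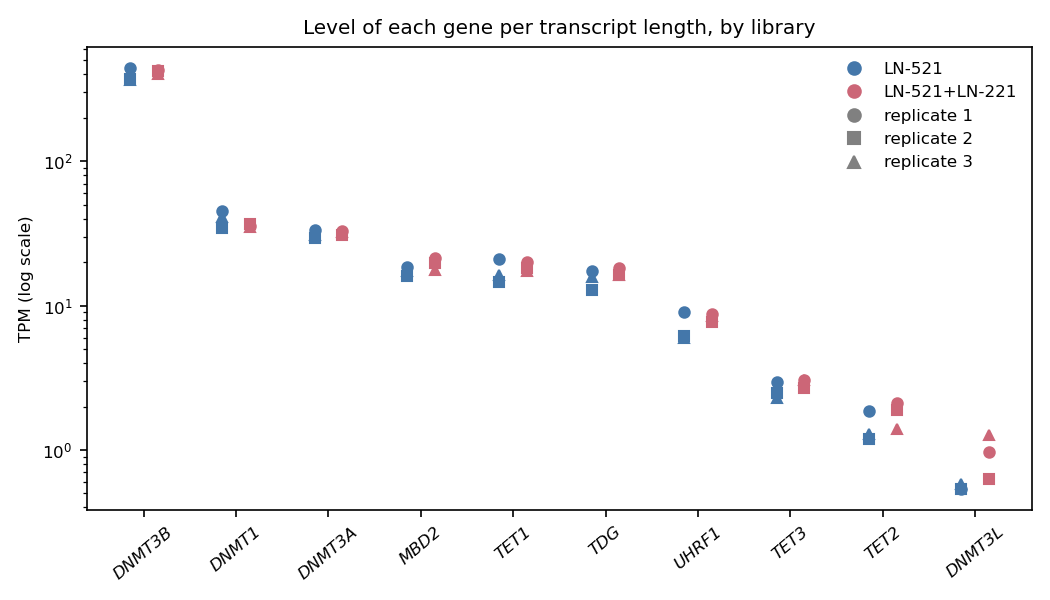
TPM (log axis) of each gene in each of the 6 libraries, ordered by mean level, with LN-521 in blue, LN-521+LN-221 in red and the symbol shape giving the replicate. DNMT3B lies between 368 and 442 TPM in every library and DNMT3L between 0.54 and 1.28 TPM.

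The question was then whether these levels differed once laminin-221 was added to the coating. None of the 10 genes passed the threshold (edgeR quasi-likelihood test, adjusted p under 0.05 over all genes tested), and 1 had an unadjusted p under 0.05. DESeq2 called 0 of them, where 3.17% of all its genes passed, and limma on log2(TPM + 1), which left out DNMT3L as too low, called 0, where 0.229% passed. Over all genes tested, 2.53% passed the threshold and 14.5% had an unadjusted p under 0.05, so that a count of 0 or 1 among 10 is near the background. The median log2 fold change of the 10 genes, LN-521+LN-221 over LN-521, was 0.10, beside -0.0011 over all genes tested. Their median absolute log2 fold change was 0.10 and that of all genes 0.11. Counts from a whole well cannot tell fewer cells of a kind from less RNA per cell.

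The 95% interval of the log2 fold change lay within 0.5 of zero in both directions for 8 genes, the exceptions being TET2 and DNMT3L. It lay within 0.2 for DNMT1, DNMT3A, DNMT3B and TDG.

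**Figure D2:**
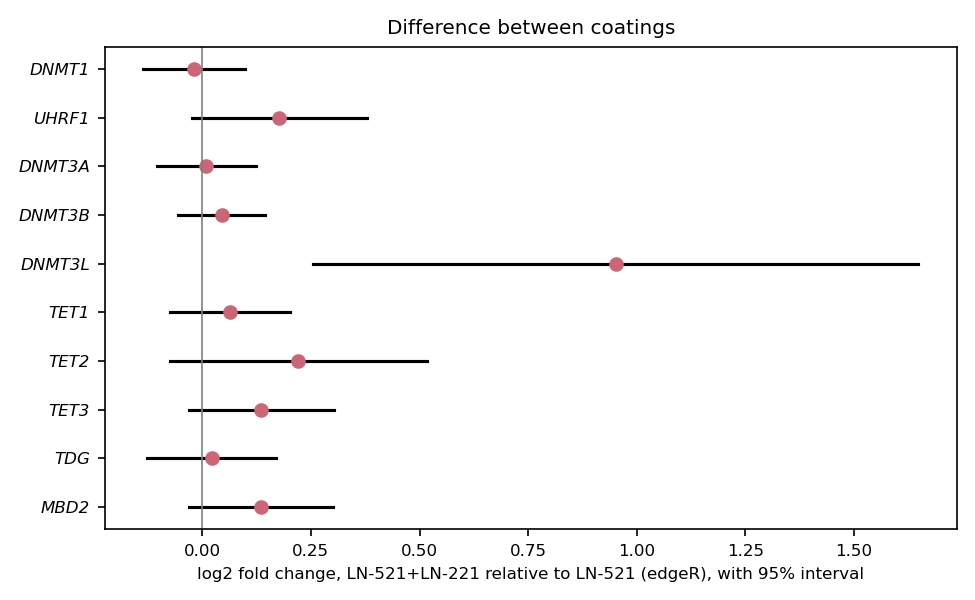
Log2 fold change of each gene between the coatings (points; above zero is higher on LN-521+LN-221) with its 95% interval (lines) from edgeR's quasi-likelihood fit on 3 against 3 libraries. The interval of DNMT3L, from 0.25 to 1.65, is the widest of the 10 and the only one that leaves out zero, before adjustment over all genes.

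The maintenance pair was described first. DNMT1 (ENSG00000130816, chr19:10133345-10231286, minus strand, GRCh38) copies methylation onto new DNA strands. Its counts scaled to library size with no length correction (CPM) were 137, 139.7 and 136 in replicates 1 to 3 on LN-521, against 129, 134 and 143 on LN-521+LN-221. The LN-521 wells lay inside the range of the others, and the log2 fold change was -0.02 ± 0.06 (SE; edgeR adjusted p = 0.922). Its 95% interval was -0.14 to 0.10.

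UHRF1 (ENSG00000276043, chr19:4903080-4962154, plus strand) had 36.7, 29.5 and 27.9 CPM on LN-521, against 36.6, 32.3 and 37.3 CPM on LN-521+LN-221. LN-521 replicate 1 lay with the LN-521+LN-221 wells and replicates 2 and 3 lay below all of them. The log2 fold change was 0.18 ± 0.10 (SE; edgeR adjusted p = 0.423). Its counts were not whole in any of the 6 libraries, so some of its reads had been divided with other genes.

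The ratio of UHRF1 to DNMT1 TPM does not depend on library scaling. It was 0.202, 0.180 and 0.146 on LN-521, against 0.245, 0.210 and 0.243 on LN-521+LN-221. The groups did not overlap, the means being 0.176 ± 0.0281 and 0.233 ± 0.0199 (SD, n = 3 each; exact permutation test, two-sided, p = 0.1, the smallest that 3 against 3 allows; 0.3 adjusted over the 3 ratios tested). From CPM, which carries no length correction, the groups overlapped and the difference was 0.0331 in place of 0.0570 (exact permutation test, two-sided, p = 0.3).

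That gap came with the length by which the authors' values were divided. Counts divided by TPM give an implied transcript length, set here relative to 1199 genes with a single annotated transcript and scaled to a mean of 1 per gene. For DNMT1 it was 0.906, 1.03 and 0.881 on LN-521, against 1.07, 1.02 and 1.10 on LN-521+LN-221, a range of 21.8%. Replicate 2 on LN-521 lay among the LN-521+LN-221 wells, so the groups overlapped. DNMT1 has 28 annotated transcripts in GENCODE 29, and which of them were counted in a library is an estimate of the authors' software. The gene S1PR2 shares exon sequence with DNMT1 on the same strand and had 16.3 to 20.7 CPM, well below DNMT1. For DNMT3B, with 6 annotated transcripts, the implied length varied by 0.756%. TET1 has a single annotated transcript and was among the reference genes, so its small range, 0.864%, was set in advance. Over all 13205 genes at 1 TPM or more the median range was 11.5%.

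The enzymes that place new marks followed. DNMT3A (ENSG00000119772, chr2:25227855-25342590, minus strand) had 132, 135 and 138 CPM on LN-521, against 132, 134 and 141 CPM on LN-521+LN-221. The wells of both coatings were interleaved, and the log2 fold change, 0.0094 ± 0.054 (SE), had an adjusted p of 0.961 in edgeR. DNMT3B (ENSG00000088305, chr20:32762385-32809356, plus strand) had 2111, 2100.4 and 1978 CPM on LN-521, against 2087, 2154 and 2145 CPM on LN-521+LN-221. LN-521 replicate 3 was the lowest well and the other 5 lay within a narrow band. The log2 fold change was 0.05 ± 0.05 (SE; edgeR adjusted p = 0.733), with a 95% interval from -0.06 to 0.15, the narrowest of the 10. Without LN-521 replicate 3 it was 0.02.

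The balance between these enzymes was also compared. DNMT3B took 93.0%, 92.7% and 92.3% of the DNMT3A and DNMT3B TPM on LN-521, against 92.9%, 93.2% and 92.6% on LN-521+LN-221. The shares overlapped, with a difference of 0.206 percentage points between the means (exact permutation test, two-sided, p = 0.5; 0.5 adjusted over the 3 ratios). It ran from 0.0267 without LN-521 replicate 3 to 0.366 without LN-521 replicate 1.

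DNMT3L (ENSG00000142182, chr21:44246339-44262216, minus strand), the cofactor without catalytic activity, was the least expressed of the 10. It had 14, 22 and 15 counts on LN-521, against 24, 20 and 45 on LN-521+LN-221. Scaled to library size these were 0.610, 0.827 and 0.602 CPM against 1.16, 0.897 and 1.90 CPM. All LN-521+LN-221 wells were above all LN-521 wells, by a small margin at the nearest pair, and replicate 3 on LN-521+LN-221 was the highest by far. The log2 fold change was 0.95 ± 0.33 (SE), the largest of the 10, with an unadjusted p of 0.0104 in edgeR that did not pass over all genes (edgeR adjusted p = 0.169). Without LN-521+LN-221 replicate 3 it was 0.58 (edgeR adjusted p = 0.604). Non-whole counts in 2 libraries and an antisense gene, DNMT3L-AS1, at 0 to 3 counts add to the uncertainty at this depth, as whether counting used the strand is not given in the sources used here.

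Groups that did not overlap in CPM were found for 2 of the 10 genes, DNMT3L and MBD2, both higher on LN-521+LN-221. Over all genes tested the share was 19.9% in either direction and 10.2% for higher alone, so this count is at the background.

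**Figure D3:**
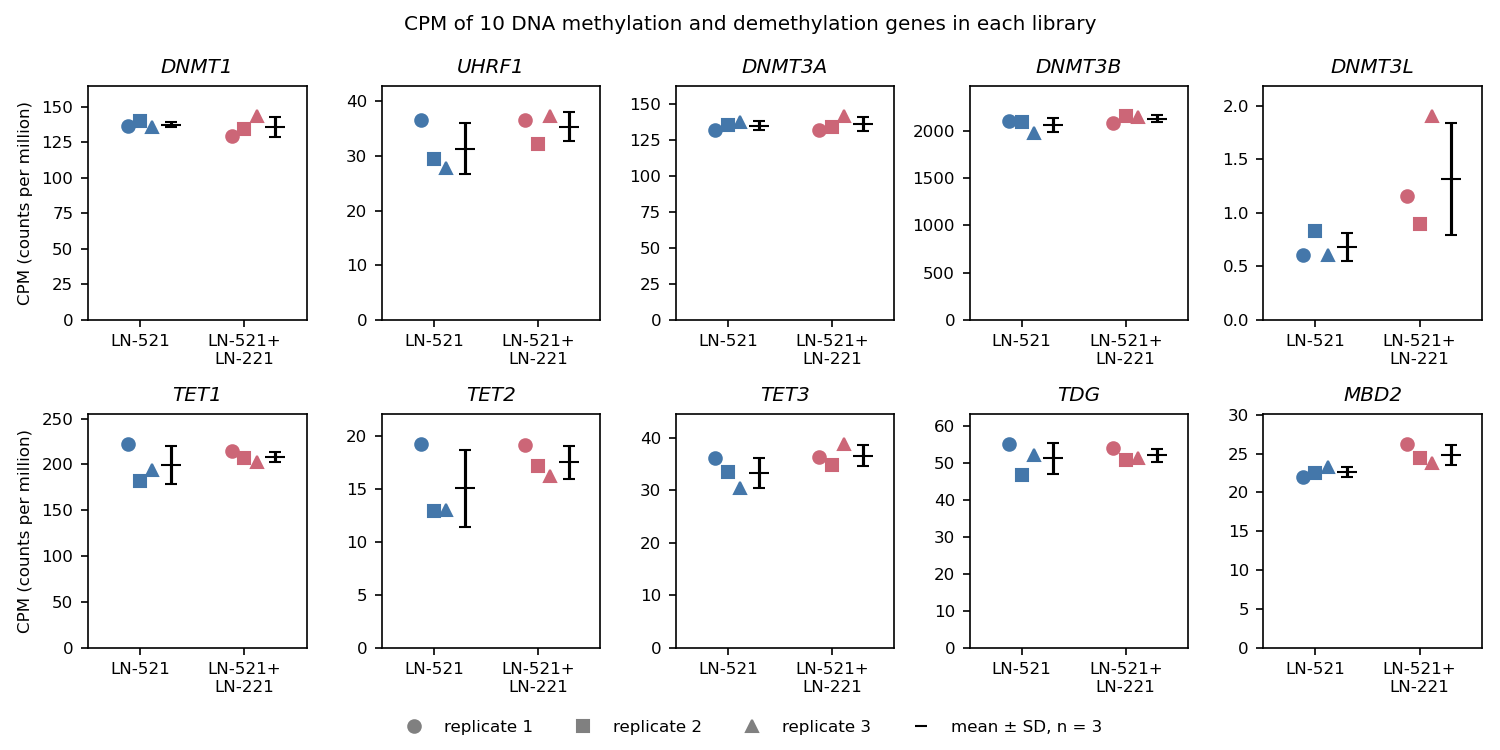
CPM (linear axes from zero, a scale of its own for each gene) of the 10 genes in each library, with the replicate given by the symbol and the mean ± SD of 3 wells beside the points. The coatings overlap for 8 genes, and in UHRF1, TET1 and TET2 replicate 1 on LN-521 stands above replicates 2 and 3.

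The TET enzymes open the route of demethylation. Their substrate is methylated cytosine, mostly within CpG, and the CpG content before their own transcription starts is shown. Printed are the 250 bases before the first start that RefSeq lists for each TET gene (GRCh38.p14, plus strand, 5′ to 3′). Every CG is in capitals, and no annotated exon of GENCODE 29 lies inside.
TET1, chr10:68560087-68560336: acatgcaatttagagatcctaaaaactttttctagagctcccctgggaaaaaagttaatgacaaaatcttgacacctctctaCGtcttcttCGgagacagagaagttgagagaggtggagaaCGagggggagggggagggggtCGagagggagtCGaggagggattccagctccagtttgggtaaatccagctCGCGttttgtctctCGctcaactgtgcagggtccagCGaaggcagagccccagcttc
TET2, chr4:105145625-105145874: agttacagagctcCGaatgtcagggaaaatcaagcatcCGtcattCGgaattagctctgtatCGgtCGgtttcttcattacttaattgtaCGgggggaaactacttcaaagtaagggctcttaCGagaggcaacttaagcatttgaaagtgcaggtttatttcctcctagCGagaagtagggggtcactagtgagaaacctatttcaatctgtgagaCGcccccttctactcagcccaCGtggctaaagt
TET3, chr2:73984660-73984909: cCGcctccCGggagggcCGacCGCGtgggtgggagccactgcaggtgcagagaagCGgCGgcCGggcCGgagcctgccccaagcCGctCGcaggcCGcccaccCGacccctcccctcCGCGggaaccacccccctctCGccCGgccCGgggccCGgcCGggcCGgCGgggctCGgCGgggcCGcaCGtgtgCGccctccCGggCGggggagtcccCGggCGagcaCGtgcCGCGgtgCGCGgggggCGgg
The TET1 window holds 9 CGs, the TET2 window 10 and the TET3 window 37. Over all 35116 RefSeq windows of this length the median was 11, and 4.00% held 37 or more. Further starts are listed, so a gene has more than this window: a second TET2 start, 1001 bases into the gene, has 34 CGs before it. No methylation was measured here, and the order of the CG counts is not that of the levels.

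TET1 (ENSG00000138336, chr10:68560656-68694482, plus strand), the main TET enzyme of embryonic stem cells, had 222, 182 and 194 CPM on LN-521, against 215, 207 and 203 CPM on LN-521+LN-221. All LN-521+LN-221 wells fell between the lowest and highest LN-521 wells, and the log2 fold change, 0.06 ± 0.07 (SE), had an adjusted p of 0.726 in edgeR. TET2 (ENSG00000168769, chr4:105145875-105279816, plus strand), which lacks the CpG-binding CXXC domain of its relatives, had 19.2, 12.9 and 13.0 CPM on LN-521, against 19.2, 17.1 and 16.2 CPM on LN-521+LN-221. Replicate 1 on LN-521 was as high as the highest LN-521+LN-221 well, while replicates 2 and 3 were the lowest of the 6. The log2 fold change was 0.22 ± 0.14 (SE; edgeR adjusted p = 0.511), with a 95% interval from -0.08 to 0.52.

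TET3 (ENSG00000187605, chr2:73986404-74108176, plus strand), known as the oxidase of the fertilised egg, had 36.2, 33.4 and 30.4 CPM on LN-521, against 36.3, 34.8 and 38.8 CPM on LN-521+LN-221. Replicate 1 on LN-521 exceeded LN-521+LN-221 replicate 2, so the groups overlapped. The log2 fold change was 0.14 ± 0.08 (SE; edgeR adjusted p = 0.470), and it ran from 0.07 without LN-521 replicate 3 to 0.20 without LN-521 replicate 1.

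TET1 took 81.4%, 79.9% and 82.1% of the summed TET TPM on LN-521, against 79.4%, 80.0% and 79.6% on LN-521+LN-221. The difference of the means was -1.43 percentage points (exact permutation test, two-sided, p = 0.2; 0.3 adjusted over the 3 ratios), and the groups overlapped at LN-521 replicate 2.

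TDG (ENSG00000139372, chr12:103965804-103988874, plus strand) had 55.1, 46.7 and 52.1 CPM on LN-521, against 54.1, 50.8 and 51.3 CPM on LN-521+LN-221. The LN-521 wells spanned those of the other coating, and the log2 fold change was 0.02 ± 0.07 (SE; edgeR adjusted p = 0.928). Its implied length was lower in all LN-521+LN-221 wells, 0.967 ± 0.0230 against 1.03 ± 0.0376 (SD, n = 3 each), a lack of overlap shared by 8.68% of genes in either direction. Counts were not whole in 4 libraries. The pseudogene TDGP1 held 0 to 6 counts per library.

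MBD2 (ENSG00000134046, chr18:54151601-54224788, minus strand), the reader among the 10, had 22.0, 22.5 and 23.2 CPM on LN-521, against 26.2, 24.5 and 23.8 CPM on LN-521+LN-221. The groups did not overlap, though the nearest wells differed by less than the spread within LN-521+LN-221. The log2 fold change was 0.13 ± 0.08 (SE; edgeR adjusted p = 0.468), with a 95% interval from -0.03 to 0.30.

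Several of these genes were high together in a single library. In LN-521 replicate 1 TET2 was 48.3% above the mean of replicates 2 and 3, UHRF1 28.0%, TET1 18.2%, TET3 13.4% and TDG 11.4%. DNMT1, DNMT3A, DNMT3B and MBD2 lay within 4% of that mean, and DNMT3L was 14.7% below it. Over all genes tested the median offset was 0.240%, and 16.9% of genes were more than 15% above, against 3 of the 10 described here. The same library had the lowest share of TPM in 7SL and 7SK RNA on LN-521, 36.4% against 43.9% and 40.6%. The offsets are in CPM, and of the counts these RNAs took 5.83%, against 7.48% and 6.78%. The part of this in the offsets was not tested.

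With LN-521 replicate 1 left out, 2 of the 10 genes passed the threshold, where 6.54% of all genes did. TET2 then had a log2 fold change of 0.43 (edgeR adjusted p = 0.00971) and UHRF1 one of 0.30 (edgeR adjusted p = 0.0220). TET1, at 0.15, did not pass (edgeR adjusted p = 0.0766). Leaving out other LN-521 wells moved the values the other way. TET1 was 0.0046 without replicate 2, TET2 was 0.12 without replicate 2 and 0.13 without replicate 3, and UHRF1 was 0.10 without replicate 3. Replicates 2 and 3 on LN-521 were below all LN-521+LN-221 wells for UHRF1, TET1, TET2, TET3, DNMT3L and MBD2, that is 6 of 10, and for 18.8% of all genes tested. This count was chosen after the values were seen.

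**Figure D4:**
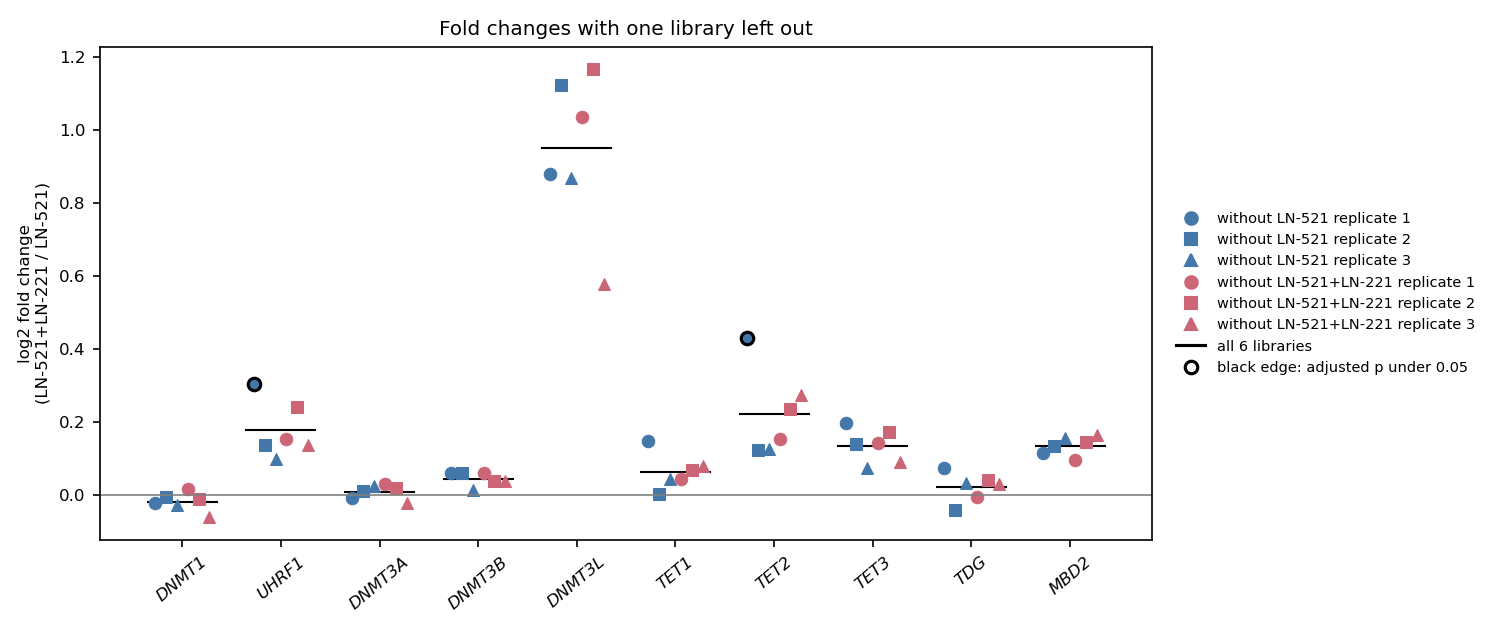
Log2 fold change of each gene (LN-521+LN-221 over LN-521) with each library left out in turn (symbols) and with all 6 (black lines). Black edges mark an adjusted p under 0.05, reached by UHRF1 at 0.30 and TET2 at 0.43 without LN-521 replicate 1.

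The genes that work with these enzymes were read from 9 lists of 96 genes, of which 90 were tested. A single gene passed the threshold, 1.11% against 2.53% of all genes, and 11 had an unadjusted p under 0.05, where 14.5% of all genes did. Groups did not overlap for 19 of the 90 (21.1%, against 19.9% of all genes). The called gene was GADD45A, a stress-induced protein linked to DNA repair and to active demethylation. It had 3.18, 3.16 and 3.57 CPM on LN-521, against 6.16, 6.37 and 5.03 CPM on LN-521+LN-221, so that every LN-521+LN-221 well was above every LN-521 well. Its log2 fold change was 0.82 ± 0.15 (SE; edgeR adjusted p = 0.00487). Without LN-521+LN-221 replicate 2 the adjusted p in edgeR was 0.0504, and limma on log2(TPM + 1) gave 0.60 (limma adjusted p = 0.171). The count over the 9 lists was 6 without LN-521 replicate 1 (GADD45A, ZBTB33, MCM6, D2HGDH, TRIM28 and IDH2), where 6.54% of all genes passed. It was 3 without LN-521 replicate 2, where 3.56% passed, and 0 without LN-521+LN-221 replicate 2, where 1.1% passed.

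Beside GADD45A, the base excision list held 14 other tested genes, none of which passed. The median log2 fold change of the list's 15 genes was 0.05. Maintenance partners, among them the clamp PCNA and the remodeller HELLS, had 0 of 11 called and a median of -0.03. The gene with the largest change there was DPPA3, an inhibitor of UHRF1, at 3.96, 3.12 and 4.37 CPM on LN-521, against 3.08, 2.42 and 2.20 CPM on LN-521+LN-221. All LN-521+LN-221 wells were lower, and the log2 fold change, -0.58 ± 0.19 (SE), had an adjusted p of 0.147 in edgeR. With a correction for GC content it was -0.62 (edgeR adjusted p = 0.0489), where 933 of all genes passed in place of 446.

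S-phase genes were included since DNMT1 and UHRF1 are transcribed with DNA replication. None of 16 passed, their median was -0.06, and the largest change was that of the cyclin CCNE2 at -0.20 ± 0.22 (SE; edgeR adjusted p = 0.740). It ran from -0.34 to -0.10 when a library was left out. With limma on TPM rescaled without 7SL and 7SK genes it was -0.018. The helicase subunit MCM6, named after its values were seen, was lower in all LN-521+LN-221 wells, at -0.19 ± 0.06 (SE; edgeR adjusted p = 0.130). It passed with the correction for GC content (-0.22, edgeR adjusted p = 0.0205), without LN-521 replicate 1 (-0.22, edgeR adjusted p = 0.0215) and without LN-521 replicate 2 (-0.23, edgeR adjusted p = 0.0293). In these settings 933, 1179 and 635 of all genes passed, in place of 446. The summed TPM of the 16 S-phase genes was 582 to 691 on LN-521, against 595 to 650.2 on LN-521+LN-221.

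Among other methyl-CpG readers 0 of 6 passed. The largest change was in ZBTB33, which encodes the zinc finger reader Kaiso, at 0.22 ± 0.09 (SE; edgeR adjusted p = 0.275). Without LN-521 replicate 1 it passed, at 0.32 (edgeR adjusted p = 0.0160). In the NuRD complex, which MBD2 recruits, 0 of 11 passed, and the largest was GATAD2B at -0.18 ± 0.10 (SE; edgeR adjusted p = 0.441). GATAD2B ran from -0.27 without LN-521+LN-221 replicate 1 to -0.12 without LN-521+LN-221 replicate 3. With limma on log2(TPM + 1) it was -0.097. The subunit MTA2, named after its values were seen, was higher in all LN-521+LN-221 wells, at 0.16 ± 0.06 (SE; edgeR adjusted p = 0.210). It passed with the correction for GC content (0.17, edgeR adjusted p = 0.0241) and without LN-521 replicate 2 (0.21, edgeR adjusted p = 0.0418). In these settings 933 and 635 of all genes passed, in place of 446. The supply of alpha-ketoglutarate and other TET cofactors had 0 of 9 called and a median of -0.09. D2HGDH, which clears an inhibitor of TET enzymes, was at -0.31 ± 0.13 (SE; edgeR adjusted p = 0.269). It was -0.13 without LN-521 replicate 2 and passed, at -0.43, without LN-521 replicate 1 (edgeR adjusted p = 0.0357).

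Methyl donor genes had 0 of 6 called and a median of -0.04. Histone modifiers that guide or repel DNMT3 enzymes had 0 of 10 called, with the demethylase KDM1B at 0.18 ± 0.12 (SE; edgeR adjusted p = 0.563), which ran from 0.10 to 0.28 when a library was left out. Of 10 listed germline genes whose promoters are known to be silenced by DNA methylation, 6 were below 1 TPM in every library. PIWIL2, named after its values were seen, had means of 38.5 CPM on LN-521 and 37.0 CPM on the other coating. In this list 6 genes were tested and 0 passed, and the summed TPM of all 10 was 11.3 to 12.4 on LN-521, against 10.7 to 13.0 on LN-521+LN-221. By the rule for named genes the one shown is STK31, at 15, 19 and 14 counts on LN-521, against 29, 20 and 22 on LN-521+LN-221. Its log2 fold change was 0.73 ± 0.32 (SE; edgeR adjusted p = 0.294).

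**Figure D5:**
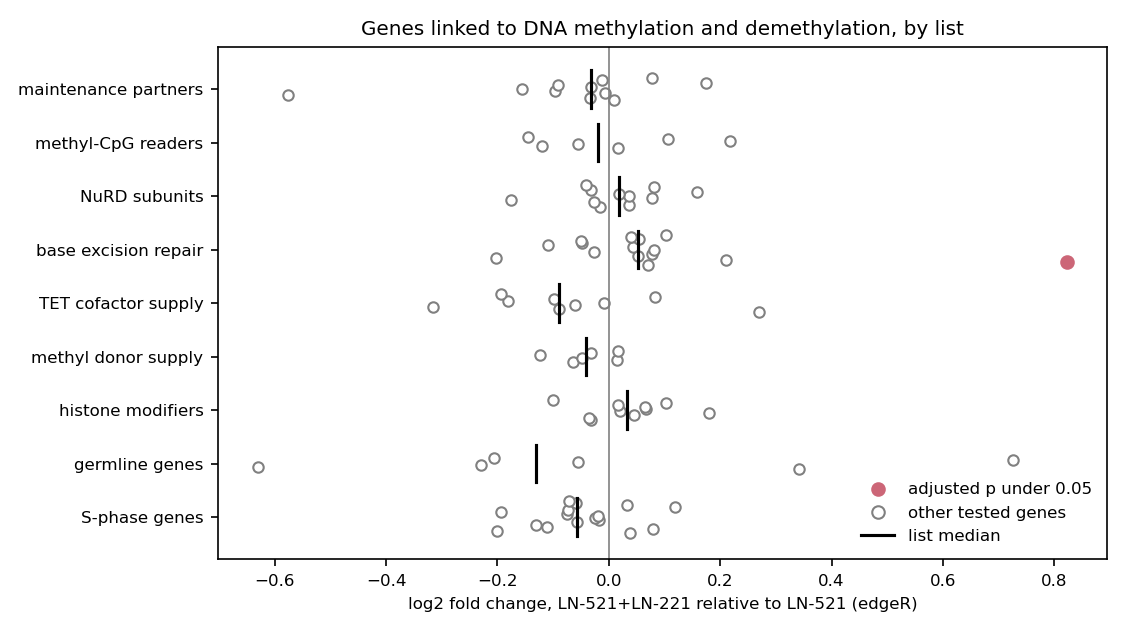
Log2 fold changes between the coatings (LN-521+LN-221 over LN-521) of the 90 tested genes in 9 lists, with the median of each list as a black bar and the gene past the threshold filled. GADD45A at 0.82 is the filled point, and list medians lie between -0.13 and 0.05.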

How the data were processed

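Per the labels' protocols, RNA was made into stranded total RNA libraries and read in pairs of 150 bases. The authors deposited estimated counts per Ensembl gene and a table of TPM values. Per the submitters' processing notes cutadapt, STAR 2.5.2b, RSEM 1.2.31 and build hg38 were used; the annotation and strand setting are not given in the sources used here. Gene positions are from GENCODE 29 (GRCh38), promoter sequences from RefSeq (GRCh38.p14), where 9 of the 10 genes matched and DNMT3L did not.

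Estimated counts were rounded, filtered (edgeR filterByExpr, minimum count 10), scaled by TMM and tested with edgeR 4.0.16 (quasi-likelihood, robust; R 4.3.3) on all 6 libraries, with Benjamini-Hochberg adjustment over 17608 genes. The SE is the absolute log2 fold change divided by the root of F. Ratios were compared by exact permutation over libraries. Alternatives included DESeq2 1.42.0, limma 3.58.1 on log2 TPM, other scalings and filters, a lowess correction for transcript GC content and leaving out each library. The main edgeR fit was tested on simulated data.

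The 10 genes and the lists were chosen with earlier results of these data known. Named list genes are up to 8 per list by smallest adjusted p under 0.05, otherwise the tested gene with the largest absolute change. A gene named by this rule is not reported here. The sample sheet lists 1 sequencing batch for all libraries.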

Additional observations from a re-analysis of the deposited data

How the results depend on the processing

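None of the 10 genes passed in any setting that used all 6 libraries, and 2 (TET2 and UHRF1) did without LN-521 replicate 1, so the count ranged from 0 to 2 when each library was left out. For genes near zero the sign depended on the setting: DNMT3A was -0.00031 without a filter and -0.0017 with TPM rescaled without 7SL and 7SK genes (added after seeing the data), TDG was -0.0032 with the GC correction and -0.0029 with the GC correction and the replicate block. Leaving out a library, DNMT1 ranged from -0.060 to 0.016, DNMT3A from -0.022 to 0.030 and TDG from -0.039 to 0.075. In the limma fits DNMT1 was -0.15 on log2(TPM + 1), -0.16 on log2(TPM + 0.1) and -0.20 on rescaled TPM, and TDG was 0.15, 0.16 and 0.11, with no call. On log2(TPM + 1) DNMT3B was 0.09 and TET1 0.10, and on rescaled TPM DNMT3L was 0.39. With the GC correction in edgeR TET1 was 0.029, DNMT3B 0.072 and DNMT3A 0.047. The cause was not tested. The other 7 genes kept their sign in every setting that tested them.

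Among linked genes the count of 1 became 0 with limma on log2(TPM + 1), on log2(TPM + 0.1) or on rescaled TPM, and 4 (GADD45A, MCM6, MTA2, DPPA3) in both fits that corrected for GC content, without or with a replicate block. Both fits also called more of all genes, 933 and 1084 in place of 446. The count of linked genes ranged from 0 to 6 when a library was left out. Over all genes the 446 calls became 718 without a filter, 33 and 16 with limma on log2(TPM + 1) and log2(TPM + 0.1), 3 on rescaled TPM, 933 with the GC correction, 1084 with the block as well, 221 and 725 at thresholds of 0.01 and 0.1, and 194 to 1179 when a library was left out (lowest without LN-521+LN-221 replicate 3, highest without LN-521 replicate 1).

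Replicate numbers recur in both groups, and wells of the same number were hardly correlated (correlations of deviations 0.047, -0.022 and 0.0090). Correlations over all genes cannot exclude a shared day or plating, so they do not settle whether the wells were paired. With the replicate block 646 genes passed in place of 446, none of the 10 among them. DNMT3L had 14 to 45 counts, and depth and spread between wells were not separated for it.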

Other observations

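Naive pluripotency markers were examined beside DNMT3L, which marks the naive state in human cells. KLF17 was at 0 to 0.04 TPM and too low to be tested, and DPPA5 was at 0.72 to 1.11 TPM. Of the 5 naive markers tested 0 passed the threshold in edgeR, and the coatings did not overlap for 2 of them, where 19.9% of all genes did not. These were SUSD2, lower at -0.37 ± 0.14 (SE; edgeR adjusted p = 0.208), and KLF4, higher at 0.15 ± 0.12 (SE; edgeR adjusted p = 0.617), both named after their values were seen. The summed TPM of the 6 naive markers was 6.43 to 7.37 on LN-521, against 6.28 to 7.15 on LN-521+LN-221.

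Markers of other cell types were also read. In the fibroblast list COL1A1 was at 37.8 to 44.1 TPM and PDGFRB at 1.48 to 2.70 TPM, while DCN did not exceed 0.16 TPM, COL3A1 did not exceed 0.01 TPM and LUM was at 0. In the trophoblast list KRT7 was at 11.1 to 13.8 TPM and TFAP2A at 0.86 to 2.21 TPM, while GATA3, CDX2 and CGA did not exceed 0.14 TPM. In the neural list DCX was called lower on LN-521+LN-221, at -0.43 ± 0.11 (SE; edgeR adjusted p = 0.0492), and 4 others did not pass, at 0.06 for NES, 0.13 for MAP2, 0.10 for TUBB3 and 0.39 for PAX6. TUBB3 was at 94.6 to 112 TPM, NES at 57.1 to 65.5 TPM and PAX6 at 0.08 to 0.34 TPM. The summed TPM of the neural list was 159 to 177 on LN-521, against 182 to 184 on LN-521+LN-221. In CPM the coatings overlapped for TUBB3, at 190.2 to 218 against 206 to 227, and for NES, at 398 to 435 against 408 to 449. Among the 20 RefSeq windows before starts of 9 of the 10 genes, the number of CGs ran from 3, before a DNMT3B start 17467 bases inside the gene, to 41, before a UHRF1 start.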
